A study of Beta vulgaris with 12 samples.

Results

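Among the genes for sodium, potassium and chloride transport in sugar beet roots, 2 HKT cation transporters were lower under salt on day 7, and a SKOR-like potassium channel was higher under salt on both days. The transporter and channel genes were taken from the deposited expression table by their written descriptions, which had to name a sodium/hydrogen exchanger, an HKT cation transporter, a potassium transporter, a potassium channel, a cation/H(+) antiporter, a K(+) efflux antiporter, a cation/proton exchanger, a chloride channel, a guard cell S-type anion channel, a cation-chloride cotransporter or a cyclic nucleotide-gated ion channel. This rule gave 83 of the 28320 genes, and no expression value entered it. Polyadenylated RNA was sequenced from whole roots of 4 groups with 3 libraries each, 12 in all. S_1 and S_7 were seedlings under a mixed NaCl and Na2SO4 solution with 300 mM Na+, sampled on day 1 and on day 7, and CK_1 and CK_7 were seedlings of the same days on nutrient solution alone. All seedlings were of the cultivar KWS0143, were grown in hydroponic culture with half-strength Hoagland solution and were 4 weeks old when treated. The study's methods describe a stepwise rise to the final Na+ concentration and do not say from which step the days were counted, while the labels give the final concentration for both days.

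Proton pumps keep root cells strongly negative inside, which draws cations in, and each transporter family has its own place in that traffic. In Arabidopsis, Na+/H+ exchangers move Na+ into the vacuole or out of the cell, HKT transporters retrieve Na+ from the xylem stream, KUP/HAK/KT carriers and AKT1 channels take up K+ from the soil, and SKOR channels release K+ into the xylem. CLC proteins exchange nitrate or chloride across inner membranes, and cyclic nucleotide-gated channels pass cations, Ca2+ among them. These roles were established mainly in Arabidopsis and rice, and the beet genes carry their names by similarity.

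Levels are given in FPKM, in which sequenced fragments are scaled to transcript length and to the fragments of the library, so that genes can be compared per length. Of the 83 genes, 51 had a mean of at least 1 FPKM over the 12 libraries, and 20 were listed at 0 in at least 1 library. None was listed at 0 in all 12. The highest means were those of potassium transporter 5 (LOC104887694) with 72.0 FPKM, potassium transporter 4 (LOC104897100) with 58.5 FPKM and the putative cyclic nucleotide-gated ion channel 5 (LOC104893415) with 43.2 FPKM. The HKT genes were low, with a highest mean of 7.07 FPKM. The guard cell anion channel SLAC1 (LOC104892397), which closes stomata in leaves, was at most 0.0929 FPKM in any root library.

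**Figure D1:**
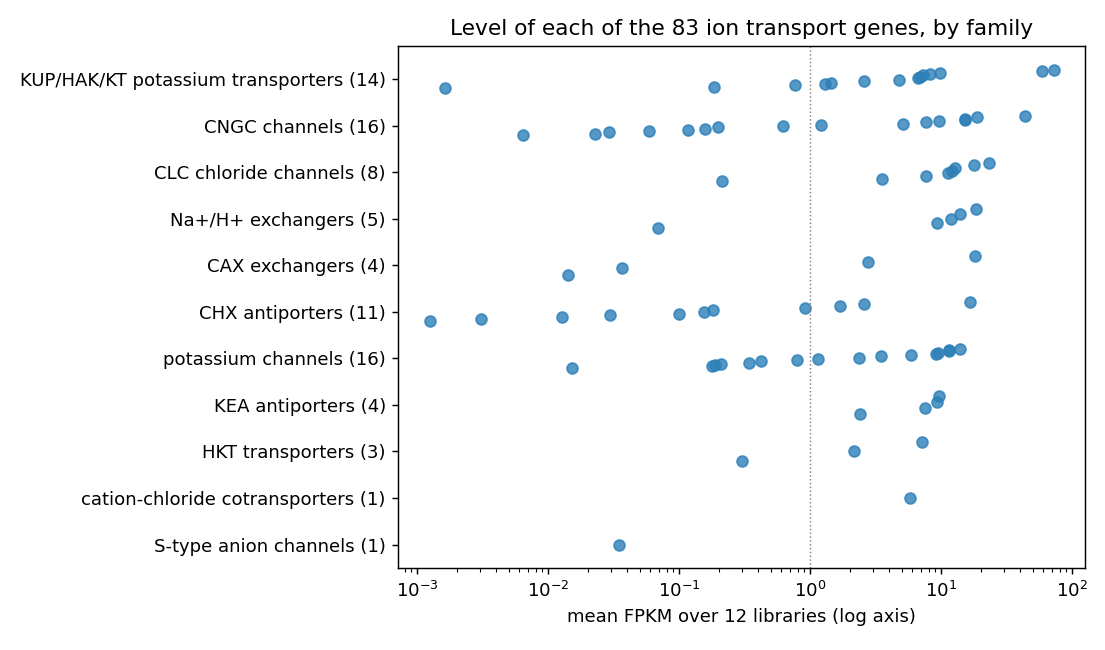
Mean FPKM over the 12 libraries (log axis) of each of the 83 genes, 1 point per gene, in rows by family with the number of genes in brackets; the dotted line marks 1 FPKM. Potassium transporters 5 and 4 stand highest at 72.0 and 58.5 FPKM, and the lowest means lie near 0.001 FPKM.

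Following the study's criteria, a DEG had a log2 fold change outside -1 to 1 with an unadjusted P under 0.05, here in limma fits of log2(FPKM + 1) over all genes. Fold changes are on that scale, which understates changes of genes near or under 1 FPKM. In S_1 against CK_1, 4 of 82 transporter genes tested were DEGs, 2 up and 2 down, where 5.99% of all genes tested were DEGs (3.44% up and 2.55% down). In S_7 against CK_7 they were 7 of 81, 4 up and 3 down, beside 5.08% of all genes (2.70% up and 2.38% down). After libraries were scaled by median ratios, day 7 had 3 DEGs up and 4 down, with 6 of the 7 genes shared, the channel gene LOC104906014 (up) lost and the channel gene LOC104888277 (down) gained. CK_7 against CK_1 gave 12 of 80, 7 up and 5 down, beside 10.2% of all genes (6.85% up and 3.40% down). The median log2 fold change of the transporter genes was 0.01 on day 1, 0.01 on day 7 and 0.08 between the controls, and over all genes tested it was 0.00, 0.02 and 0.05 in the same order.

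Only genes with a mean log2(FPKM + 1) above 1 in a group could reach the fold criterion. Among those, DEGs were 4 of 48 transporter genes on day 1, beside 9.36% of all such genes, 7 of 52 on day 7, beside 7.79%, and 12 of 54 between the controls, beside 15.7%. Benjamini-Hochberg adjusted p-values from limma, with no fold criterion, were under 0.05 for 1 transporter gene on day 1 (0.772% of all genes), for 4 on day 7 (1.69%) and for 15 between the controls (8.13%). The 3 salt libraries lay wholly beyond the 3 CK libraries for 23 transporter genes on day 1 (21.8% of all genes) and for 33 on day 7 (26.4%). Between CK_7 and CK_1 this held for 36 (32.6% of all genes).

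The salt effect on day 7 minus that on day 1 was tested as an interaction over the 12 libraries, in which an adjusted p under 0.05 was the criterion. It was met by 7 of the 83 genes, beside 1.76% of all genes. The salt effect was higher on day 7 for potassium transporter 4, potassium transporter 8 and an AKT1-like channel, and lower for 2 HKT genes and 2 cation/H(+) antiporters, beside 0.826% and 0.936% of all genes. The interaction and the comparison of CK_7 with CK_1 use the same control libraries as the salt comparisons, so their values are not separate evidence. Of the 80 genes tested on both days, 24 had a higher mean log2 level under salt on both days and 19 a lower one. A further 20 were higher on day 1 and lower on day 7, and 17 were the other way round.

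**Figure D2:**
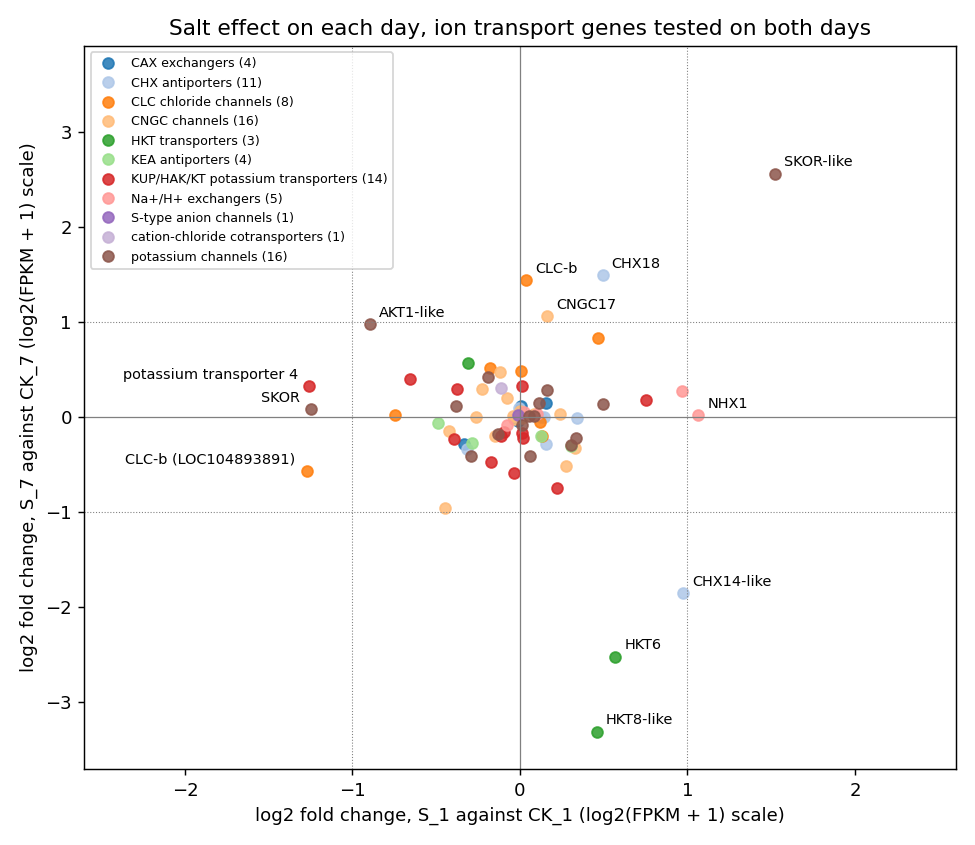
Log2 fold change of S_1 against CK_1 (horizontal) and of S_7 against CK_7 (vertical), both on the log2(FPKM + 1) scale, 1 point per gene tested on both days and coloured by family, with dotted lines at the fold criterion. SKOR-like lies past it on both axes at 1.52 and 2.56, HKT8-like and HKT6 lie at -3.31 and -2.52 on day 7, and potassium transporter 4 and SKOR lie at -1.26 and -1.25 on day 1.

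Of the 5 Na+/H+ exchangers, 1 was a DEG under salt, on day 1. Sodium/hydrogen exchanger 1 (LOC104889031), named after the vacuolar NHX1 of Arabidopsis, had 15.9, 12.9 and 15.8 FPKM in S_1, against 7.35, 5.60 and 6.81 FPKM in CK_1. The groups did not overlap, and the gene was upregulated by 1.06 ± 0.17 (log2, SE; limma adjusted p = 0.0684). Without the second CK_1 library the log2 fold change was 0.97, short of the criterion. Its paralogue sodium/hydrogen exchanger 1-like (LOC104891055), named here after its values were seen, had 13.1, 11.4 and 10.9 FPKM in S_1, against 4.79, 7.80 and 4.49 FPKM in CK_1. That log2 difference of 0.96 ± 0.23 missed the fold criterion (limma adjusted p = 0.135).

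On day 7 the levels of NHX1 overlapped, with 10.3, 19.4 and 10.2 FPKM in S_7 and 16.3, 10.5 and 11.4 FPKM in CK_7. The log2 difference was 0.02 ± 0.30, and the interaction of -1.04 ± 0.35 had an adjusted p of 0.199 in limma, so a change of the effect between the days was not established. Sodium/hydrogen exchanger 8 (LOC104895331), whose Arabidopsis namesake is a plasma membrane exchanger closely related to SOS1, was the highest of the family. It had 16.1, 14.2 and 18.4 FPKM in S_1, against 21.6, 18.1 and 12.7 FPKM in CK_1, and 20.6, 17.6 and 19.7 FPKM in S_7, against 20.4, 20.8 and 20.5 FPKM in CK_7. The log2 differences were -0.07 ± 0.23 on day 1 and -0.09 ± 0.09 on day 7, neither past the criteria (limma adjusted p = 0.903 and 0.646). Summed over the 5 exchangers, the level was 56.2 ± 5.7 FPKM in S_1, against 42.0 ± 4.9 FPKM in CK_1, and 59.0 ± 0.8 FPKM in S_7, against 57.1 ± 1.4 FPKM in CK_7 (SD, n = 3 each).

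Of the 3 HKT transporters, 2 were DEGs on day 7, both down. The HKT8-like gene (LOC104903830) is named after rice HKT8, which retrieves Na+ from xylem sap in rice roots. It had 0.272, 1.455 and 1.495 FPKM in S_7, against 23.7, 14.3 and 18.9 FPKM in CK_7. All S_7 libraries lay far under the lowest CK_7 library. The gene was downregulated by 3.31 on the log2 scale (SE 0.34; limma adjusted p = 0.0221), and the ratio of mean FPKM was 0.0566.

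On day 1 the same gene had 5.94, 4.92 and 3.79 FPKM in S_1, against 3.60, 2.01 and 4.50 FPKM in CK_1. These groups overlapped, and the log2 difference of 0.46 ± 0.31 did not pass the criteria (limma adjusted p = 0.544). The interaction, the effect of day 7 minus that of day 1, was -3.76 ± 0.47 (limma adjusted p = 0.00677). The control level was itself different between the days: HKT8-like was upregulated by 2.21 ± 0.30 in CK_7 against CK_1 (limma adjusted p = 0.0186). The S_7 libraries lay under the CK_1 libraries as well.

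A probable HKT6 gene (LOC104902377), which lies elsewhere in the genome, was also highest in CK_7. It had 0.826, 0.221 and 0.238 FPKM in S_7, against 6.26, 8.81 and 6.28 FPKM in CK_7. It was downregulated by 2.52 on the log2 scale (SE 0.26; limma adjusted p = 0.0215), with a ratio of mean FPKM of 0.0602. On day 1 it had 1.58, 0.470 and 0.431 FPKM in S_1, against 0.110, 0.315 and 0.137 FPKM in CK_1. The groups did not overlap on that day, but the difference of 0.57 ± 0.25 did not pass the criteria (limma adjusted p = 0.351). The interaction was -3.09 ± 0.38 (limma adjusted p = 0.00677), and CK_7 exceeded CK_1 by 2.76 ± 0.23 (adjusted p = 0.00709).

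The first S_7 library was the lowest of its group for HKT8-like and the highest for HKT6. HKT8-like over HKT6 was 0.329 in that library, against 6.57 and 6.28 in the other S_7 libraries, 3.78, 1.63 and 3.01 in CK_7 and 3.75 or more in every day 1 library. The sum of both genes did not show this split, with 1.10, 1.68 and 1.73 FPKM in S_7 and 29.9, 23.1 and 25.2 FPKM in CK_7. Both genes stayed past the criteria on day 7 under each of the 13 alternatives, each left-out library included.

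A second probable HKT6 gene (LOC104903831) sits next to HKT8-like, with 0 coding genes between them in the RefSeq order, and did not follow its neighbour. It had 0.942, 1.12 and 0.184 FPKM in S_7, against 0.234, 0.145 and 0.0602 FPKM in CK_7, and 0.0552, 0 and 0.0263 FPKM in S_1, against 0.252, 0.158 and 0.426 FPKM in CK_1. The log2 differences of 0.57 ± 0.24 and -0.31 ± 0.08 did not pass the criteria (limma adjusted p = 0.28 and 0.167). Its interaction of 0.88 ± 0.26 passed without the third S_7 library (1.14) and not with it (adjusted p = 0.15).

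Rice HKT8 and the HKT transporter of Arabidopsis retrieve Na+ from the xylem. The 9 xylem markers summed to between 32.6 and 42.4 FPKM in S_7, against 49.5 to 67.7 FPKM in CK_7, and between 20.9 and 60.6 FPKM in S_1, against 8.46 to 33.4 FPKM in CK_1. None was listed at 0 in all libraries, 8 of 9 had a lower mean log2 level in S_7 than in CK_7, and 0 of 9 was a DEG on day 7 (4 with an unadjusted limma P under 0.05). On day 1, 2 of 9 were upregulated and 1 was downregulated, beside 3.44% and 2.55% of all genes. In CK_7 against CK_1, 3 of 9 were upregulated and 1 was downregulated, beside 6.85% and 3.40% of all genes. In whole roots, fewer cells of a type and less RNA per cell cannot be told apart, and the part of cell type shares in the HKT values was not tested.

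**Figure D3:**
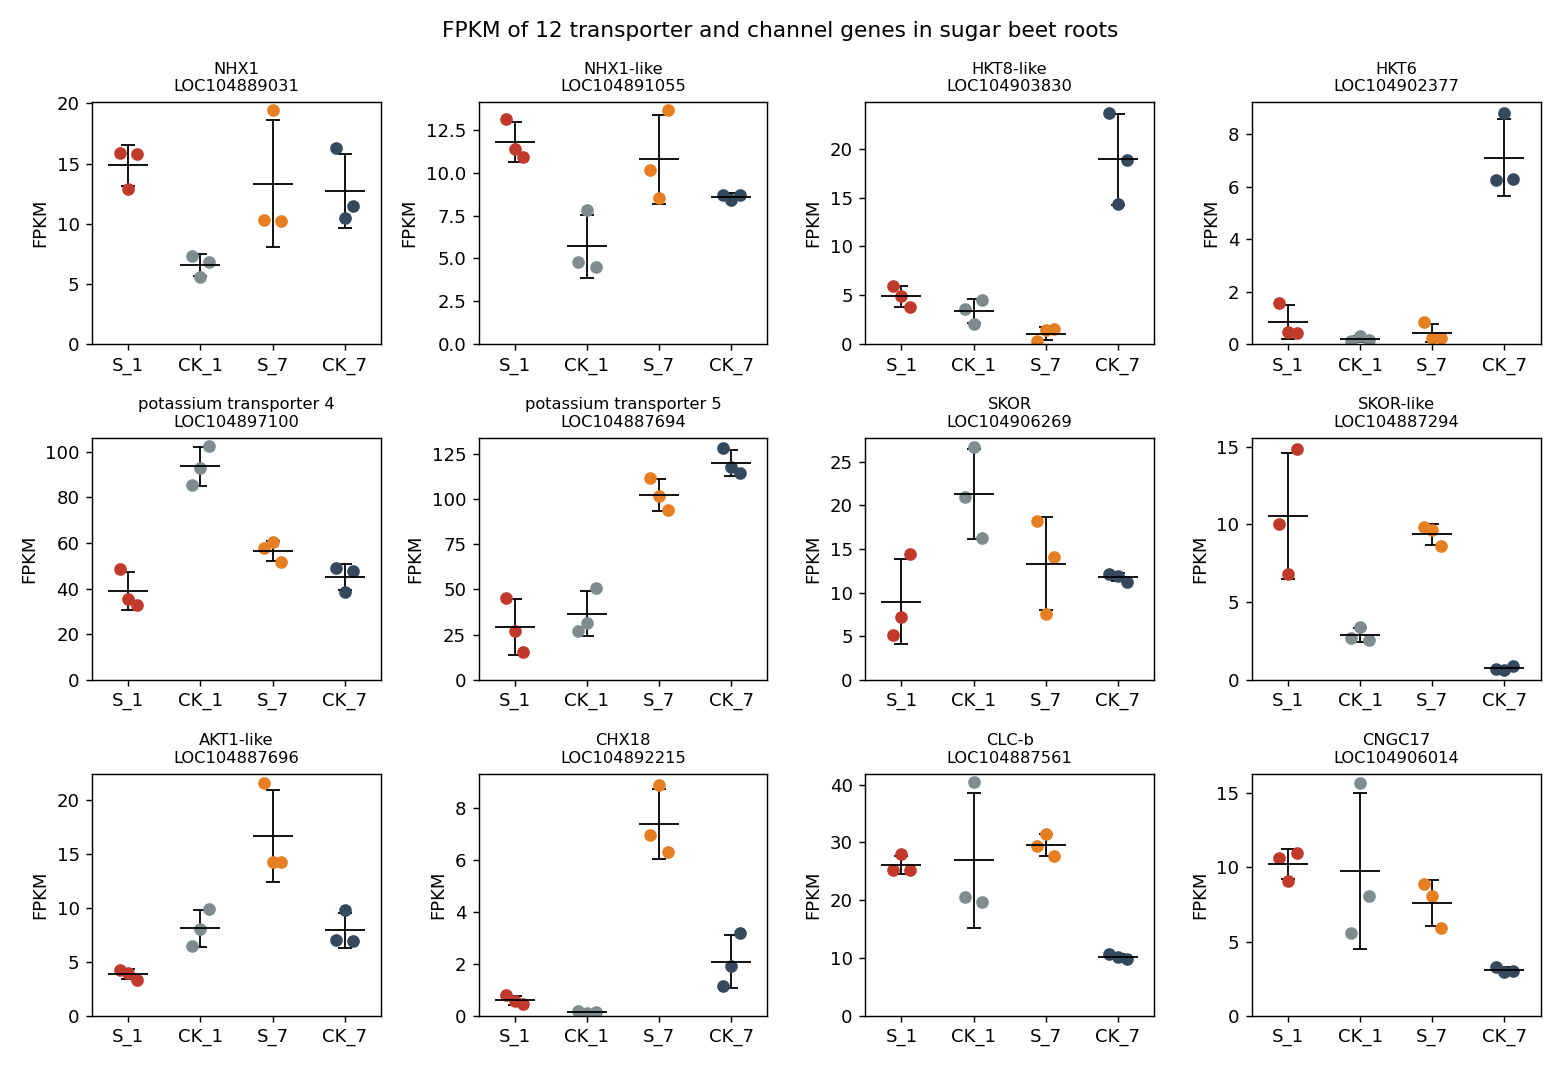
FPKM in each library (points, replicates 1 to 3 from left to right) with the mean (long bar) and SD (error bar, n = 3) for 12 genes, in the order S_1, CK_1, S_7, CK_7 on the horizontal axis. HKT8-like and HKT6 stand out in CK_7, SKOR-like is higher in both salt groups than in either control group, and potassium transporter 4 is highest in CK_1, at 85.5 to 103 FPKM.

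Of the 14 KUP/HAK/KT potassium transporters, 1 was a DEG under salt, on day 1. Potassium transporter 4 (LOC104897100), whose Arabidopsis namesake is a K+ carrier also known as KUP3, had 48.7, 35.3 and 32.9 FPKM in S_1, against 85.5, 92.8 and 103 FPKM in CK_1. The groups stood far apart, and the gene was downregulated by 1.26 on the log2 scale (SE 0.20; limma adjusted p = 0.0643). On day 7 the order was reversed, with 57.7, 60.2 and 51.6 FPKM in S_7, against 48.8, 38.6 and 47.6 FPKM in CK_7. That difference of 0.33 ± 0.13 did not pass the criteria (limma adjusted p = 0.256), while the interaction of 1.59 ± 0.23 did (adjusted p = 0.0127). The control level was also lower on day 7, with -1.04 ± 0.15 in CK_7 against CK_1 (limma adjusted p = 0.0215), which fell short of the fold criterion without the third CK_1 library (-0.98) or the second CK_7 library (-0.94).

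Potassium transporter 8 (LOC104883983), another K+ carrier of this family, followed the same order at a lower level. It had 3.91, 5.26 and 5.31 FPKM in S_1, against 7.57, 8.46 and 8.38 FPKM in CK_1, and 7.92, 7.36 and 8.02 FPKM in S_7, against 5.88, 5.52 and 5.53 FPKM in CK_7. The groups did not overlap on either day. Neither difference reached the fold criterion, with -0.66 ± 0.18 on day 1 and 0.40 ± 0.11 on day 7 (limma adjusted p = 0.176 and 0.139), and the interaction was 1.06 ± 0.18 (adjusted p = 0.0227). The interaction lost its call when the second or the third CK_7 library or the first or the third S_7 library was left out, with adjusted p between 0.0159 and 0.0609 over its 17 alternatives.

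Potassium transporter 5 (LOC104887694) is named after the high-affinity root K+ carrier HAK5 of Arabidopsis, which is induced by K+ starvation there. It had 45.4, 27.1 and 15.2 FPKM in S_1, against 27.2, 31.7 and 50.8 FPKM in CK_1, and 112, 101 and 94.0 FPKM in S_7, against 128, 118 and 114 FPKM in CK_7. The salt differences of -0.39 ± 0.44 and -0.23 ± 0.12 did not pass the criteria (limma adjusted p = 0.711 and 0.376). Between the controls, CK_7 exceeded CK_1 by 1.74 ± 0.25 (adjusted p = 0.0209). A related gene, potassium transporter 5-like (LOC104902484), was above 0 in a single library, at 0.0196 FPKM in S_1. Summed over the 14 genes, the family had 115 ± 27 FPKM in S_1, against 183 ± 15 FPKM in CK_1, and 209 ± 13 FPKM in S_7, against 214 ± 16 FPKM in CK_7 (SD, n = 3 each). Potassium transporter 4 alone had means of 39.0 FPKM in S_1 and 93.6 FPKM in CK_1. On day 1, 6 of the 14 genes had a higher mean log2 level under salt and 8 a lower one. By limma, the family held 1 DEG on day 1, 0 on day 7 and 2 between the controls, beside 2 of 14, 5 of 13 and 6 of 13 genes with an unadjusted P under 0.05, against 15.6%, 18.9% and 25.7% of all genes.

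**Figure D4:**
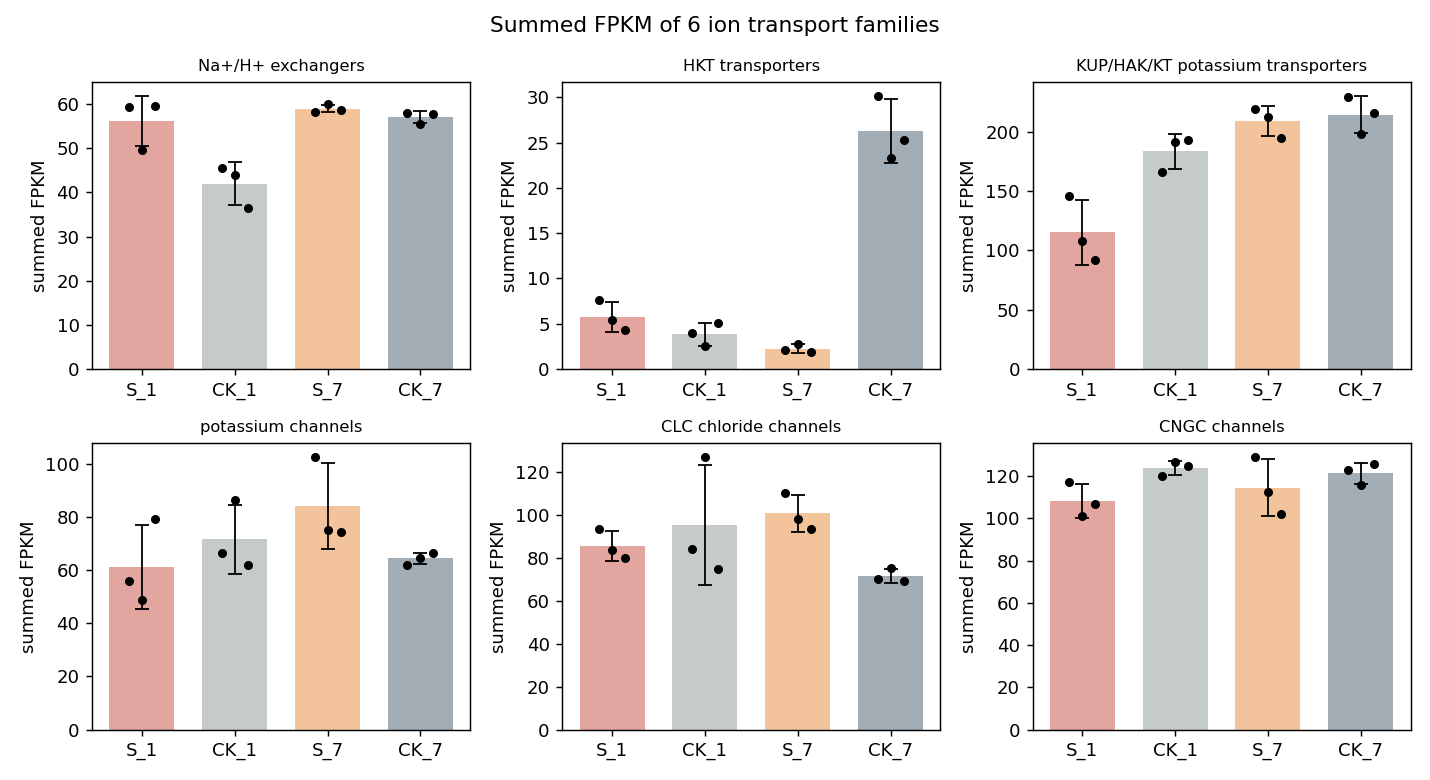
Summed FPKM of 6 families (bars, means; error bars, SD, n = 3; points, libraries) in the order S_1, CK_1, S_7, CK_7. The HKT sum is 2.25 FPKM in S_7 and 26.2 FPKM in CK_7. The KUP/HAK/KT sum is 115 FPKM in S_1 and 183 FPKM in CK_1, of which potassium transporter 4 holds 39.0 and 93.6 FPKM.

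Among potassium channels, both SKOR genes changed on day 1, in opposite directions. SKOR is an outward channel that loads K+ into the xylem in Arabidopsis roots. The SKOR-like gene (LOC104887294) had 10.0, 6.80 and 14.9 FPKM in S_1, against 2.69, 3.40 and 2.56 FPKM in CK_1. It was upregulated by 1.52 ± 0.30 (limma adjusted p = 0.0978). On day 7 it had 9.85, 9.62 and 8.61 FPKM in S_7, against 0.727, 0.642 and 0.914 FPKM in CK_7. All salt libraries of both days lay above all CK libraries. The upregulation on day 7 was 2.56 ± 0.16 (limma adjusted p = 0.00713), with a ratio of mean FPKM of 12.3, and it held under each of the 13 alternatives. The 2 effects differed by an interaction of 1.04 ± 0.33, which did not pass the criterion (limma adjusted p = 0.177), and CK_7 was lower than CK_1, with a log2 difference of -1.14 ± 0.20 (adjusted p = 0.0325).

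The gene annotated as SKOR itself (LOC104906269) had 5.20, 7.23 and 14.4 FPKM in S_1, against 21.0, 26.7 and 16.3 FPKM in CK_1. The groups were close at their edges, and the third S_1 library was the nearest to CK_1. SKOR was downregulated by 1.25 on the log2 scale (SE 0.38; limma adjusted p = 0.208). The criteria were no longer met without the second CK_1 library (-1.08), the first S_1 library (-0.96) or the second S_1 library (-1.16). On day 7 the groups overlapped, with 18.2, 7.61 and 14.1 FPKM in S_7 and 12.2, 11.9 and 11.2 FPKM in CK_7, and the difference was 0.09 ± 0.30 (limma adjusted p = 0.905).

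SKOR-like stood at 1.93, 0.941 and 1.03 times SKOR in S_1, against 0.128, 0.127 and 0.157 times in CK_1. The same ratio was 0.540, 1.26 and 0.611 in S_7, against 0.0598, 0.0539 and 0.0813 in CK_7. The ratios of the salt and CK libraries did not overlap on either day. The sum of both genes overlapped on day 1, with 15.2, 14.04 and 29.3 FPKM in S_1 and 23.7, 30.05 and 18.8 FPKM in CK_1, but not on day 7, with 28.1, 17.2 and 22.7 FPKM in S_7 and 12.9, 12.6 and 12.2 FPKM in CK_7. How the quantification shared reads between near-identical copies is not given in the sources used here, and the similarity of these copies was not measured. Endodermis markers also differed on day 7: the 3 Casparian strip genes summed to between 72.7 and 104 FPKM in S_7, against 14.9 to 44.4 FPKM in CK_7. Of the 3, 2 were upregulated (limma adjusted p = 0.189 and 0.208), beside 2.70% of all genes. On day 1 their sums overlapped, at 15.5 to 80.9 FPKM in S_1 and 13.1 to 61.1 FPKM in CK_1. On that day 1 of the 3 was upregulated (limma adjusted p = 0.316), beside 3.44% of all genes. Of the 9 xylem markers, 8 had a lower mean log2 level in S_7 than in CK_7, with a median log2 fold change of -0.43. In S_1, 7 of the 9 were higher than in CK_1, with a median of 0.89. The part of cell type shares in the SKOR values was not tested.

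AKT1 is the inward channel for root K+ uptake in Arabidopsis. The AKT1-like gene (LOC104887696) had 4.28, 3.95 and 3.34 FPKM in S_1, against 6.46, 8.07 and 9.87 FPKM in CK_1. It had 21.6, 14.2 and 14.3 FPKM in S_7, against 7.06, 9.81 and 6.91 FPKM in CK_7. Salt libraries were thus wholly below CK on day 1 and wholly above CK on day 7. Each difference fell just short of the fold criterion, with -0.90 ± 0.21 and 0.98 ± 0.22 (limma adjusted p = 0.133 and 0.102), and the interaction of 1.87 ± 0.30 passed (adjusted p = 0.0177). The criteria were met on day 1 without the first CK_1 library (-1.04), and on day 7 without the second CK_7 library (1.12), the second S_7 library (1.07) or the third S_7 library (1.07).

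Genes named AKT1 flank it on both sides in the RefSeq order. LOC104887697 had 7.94, 6.15 and 10.4 FPKM in S_1, against 7.00, 11.4 and 4.85 FPKM in CK_1, and 14.9, 11.3 and 8.86 FPKM in S_7, against 11.4, 9.76 and 9.64 FPKM in CK_7. Its log2 differences of 0.11 ± 0.34 and 0.15 ± 0.20 did not pass the criteria. AKT1-like over this neighbour was 0.539, 0.643 and 0.321 in S_1, against 0.922, 0.708 and 2.04 in CK_1, and 1.45, 1.26 and 1.61 in S_7, against 0.621, 1.00 and 0.717 in CK_7, without overlap on either day. The other neighbour, LOC104887695, was at most 0.405 FPKM, and a further AKT1 gene (LOC104902109) at most 0.436 FPKM.

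A KAT3 gene (LOC104906455), named after a regulatory subunit of AKT1 channels in Arabidopsis, was the single transporter gene with an adjusted p under 0.05 on day 1. It had 0.527, 0.465 and 0.572 FPKM in S_1, against 0.102, 0.0220 and 0.111 FPKM in CK_1, and differed by 0.50 ± 0.07 (limma adjusted p = 0.0488). On the log2(FPKM + 1) scale such a level cannot reach the fold criterion, and with a pseudocount of 0.1 the difference was 1.84 (limma adjusted p = 0.0903). Over its 12 alternatives the adjusted p lay between 0.00205 and 0.253. On day 7 its groups overlapped (0.13 ± 0.06, limma adjusted p = 0.313). Another KAT3 gene (LOC104883074), named here after its values were seen, overlapped on day 1 (0.06 ± 0.30, limma adjusted p = 0.939). On day 7 that gene was lower, with 0.0479, 0.0319 and 0.0488 FPKM in S_7, against 0.516, 0.364 and 0.281 FPKM in CK_7 (-0.41 ± 0.07, limma adjusted p = 0.0646). The phloem channel AKT2/3 (LOC104896713), named here after its values were seen, had 0.138, 0.441 and 0.312 FPKM in S_1, against 0.694, 0.625 and 0.730 FPKM in CK_1 (log2 difference -0.38 ± 0.12, limma adjusted p = 0.211). On day 7 it had 0.343, 0.470 and 0.399 FPKM in S_7, against 0.175, 0.251 and 0.464 FPKM in CK_7, with overlap (0.12 ± 0.10, limma adjusted p = 0.588). Its level was also lower in CK_7 than in CK_1 (-0.38 ± 0.11, limma adjusted p = 0.0982). The 4 phloem markers summed to between 7.60 and 13.2 FPKM in S_1, against 27.4 to 41.0 FPKM in CK_1. Of the 4, 1 was downregulated, beside 2.55% of all genes, and none was listed at 0 throughout. PHLOEM PROTEIN 2-LIKE A1 (LOC104882820) averaged 4.78 FPKM in S_1, against 19.5 FPKM in CK_1, and PHLOEM PROTEIN 2-LIKE A10 (LOC104894975) was listed at 0 in all S_1 libraries and in 1 CK_1 library. The 2 sieve element occlusion genes overlapped between the groups, with ratios of means of 0.902 and 0.865. The part of these markers in the AKT2/3 values was not tested.

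Of the CHX cation/H(+) antiporters, which exchange K+ or Na+ for protons in Arabidopsis, 2 of 10 tested were DEGs on day 7. Cation/H(+) antiporter 18 (LOC104892215) had 6.98, 8.89 and 6.32 FPKM in S_7, against 1.16, 1.90 and 3.17 FPKM in CK_7. It was upregulated by 1.49 ± 0.29 (limma adjusted p = 0.0792). On day 1 it was low, with 0.792, 0.554 and 0.446 FPKM in S_1, against 0.168, 0.0849 and 0.138 FPKM in CK_1, and the difference of 0.49 ± 0.10 missed the fold criterion (adjusted p = 0.104). Salt libraries were above CK on both days, and CK_7 exceeded CK_1 by 1.39 ± 0.26 (adjusted p = 0.0358).

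Cation/H(+) antiporter 14-like (LOC104894068) was highest in CK_7. It had 1.23, 0.220 and 0.537 FPKM in S_7, against 5.39, 3.41 and 5.99 FPKM in CK_7, and was downregulated by 1.85 on the log2 scale (SE 0.32; limma adjusted p = 0.0627). On day 1 it had 1.47, 0.0780 and 1.88 FPKM in S_1, against 0.00254, 0.00670 and 0 FPKM in CK_1. The difference of 0.97 ± 0.37 missed the fold criterion (adjusted p = 0.292), which it passed without the second S_1 library (1.41). The interaction was -2.83 ± 0.52 (limma adjusted p = 0.0328). It lost its call when any of the CK_1 libraries, the first or the third S_1 library, the first or the third CK_7 library, or the second or the third S_7 library was left out, with adjusted p between 0.0104 and 0.0782 over 17 alternatives. Between the controls the upregulation was 2.54 ± 0.24 (adjusted p = 0.00928).

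Cation/H(+) antiporter 15 (LOC104900258) stayed under 1 FPKM, with 0.0630, 0.118 and 0.106 FPKM in S_7, against 0.323, 0.362 and 0.324 FPKM in CK_7, and 0.284, 0.0926 and 0.0811 FPKM in S_1, against 0.0184, 0.0266 and 0.0503 FPKM in CK_1. Its interaction of -0.44 ± 0.08 (limma adjusted p = 0.0365) lost its call when any library of CK_1, CK_7 or S_7 was left out, with adjusted p between 0.0144 and 0.0944 over 16 alternatives. Another gene of that name (LOC104905954), named here after its values were seen, overlapped on day 7 (-0.003 ± 0.069, limma adjusted p = 0.984). Its interaction of -0.13 ± 0.07 did not pass (limma adjusted p = 0.475). The highest antiporter, number 20 (LOC104893622), had 31.7, 13.4 and 8.90 FPKM in S_7, against 14.5, 17.5 and 15.6 FPKM in CK_7, and 18.2, 20.8 and 14.3 FPKM in S_1, against 15.1, 20.1 and 8.27 FPKM in CK_1. Neither difference passed the criteria. Cation/H(+) antiporter 2-like (LOC104897774) was listed at 0 in all CK_1 libraries and had 0.214, 0.395 and 0.187 FPKM in CK_7 (limma adjusted p = 0.0441).

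The 4 KEA antiporters and the 4 vacuolar CAX exchangers gave 0 salt DEGs on either day (1 KEA gene with an unadjusted limma P under 0.05 on each day, and 0 CAX genes). K(+) efflux antiporter 4 (LOC104884366), a K+/H+ antiporter, had 8.29, 8.82 and 7.94 FPKM in S_7, against 11.95, 10.75 and 9.003 FPKM in CK_7, and 6.46, 5.59 and 6.26 FPKM in S_1, against 4.40, 4.98 and 4.89 FPKM in CK_1. Neither salt difference passed the criteria (-0.30 ± 0.13 and 0.30 ± 0.17, limma adjusted p = 0.298 and 0.456). Its increase of 1.00 in CK_7 against CK_1 sat on the fold criterion, which it missed without the first CK_1 library (0.96), the first CK_7 library (0.92) or the second CK_7 library (0.99) and after median ratio scaling (0.82). K(+) efflux antiporter 5 (LOC104906590), the highest of its family, had 6.77, 8.48 and 7.08 FPKM in S_1, against 10.3, 12.4 and 9.89 FPKM in CK_1, a difference of -0.49 ± 0.17 (limma adjusted p = 0.253). The highest exchanger, vacuolar cation/proton exchanger 2 (LOC104901411), which carries Ca2+ and other metals in Arabidopsis, had 18.1, 13.6 and 15.3 FPKM in S_1, against 25.3, 12.9 and 23.8 FPKM in CK_1, with overlap.

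Of the 8 CLC genes, 1 was a DEG under salt, on day 7. This CLC-b gene (LOC104887561) is named after a vacuolar nitrate/proton exchanger of Arabidopsis. It had 29.4, 31.4 and 27.7 FPKM in S_7, against 10.7, 10.2 and 9.81 FPKM in CK_7. Replicates lay close together, and the gene was upregulated by 1.44 ± 0.09 (limma adjusted p = 0.00695), with a ratio of mean FPKM of 2.88. It held under each of the 13 alternatives. On day 1 it had 25.2, 28.0 and 25.3 FPKM in S_1, against 20.5, 40.4 and 19.7 FPKM in CK_1, where the second CK_1 library stood above the rest (difference 0.04 ± 0.29, limma adjusted p = 0.965). The interaction of 1.40 ± 0.32 did not pass the criterion (adjusted p = 0.0658). The interaction passed without the second CK_1 library (1.08) or the third (1.58) and after median ratio scaling (1.33). In CK_7 against CK_1 the difference was -1.24 ± 0.29, and -0.91 without the second CK_1 library, short of the fold criterion.

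A second CLC-b gene (LOC104893891), named here after its values were seen, had lower values under salt, with 10.3, 12.3 and 13.0 FPKM in S_7, against 13.4, 21.6 and 20.1 FPKM in CK_7. On day 1 it had 6.83, 4.33 and 2.49 FPKM in S_1, against 11.6, 23.9 and 5.59 FPKM in CK_1. Neither difference passed the criteria (-0.57 ± 0.20 and -1.27 ± 0.56, limma adjusted p = 0.226 and 0.348). The first CLC-b over the second was 2.85, 2.56 and 2.13 in S_7, against 0.800, 0.471 and 0.487 in CK_7, and 3.69, 6.45 and 10.1 in S_1, against 1.77, 1.69 and 3.53 in CK_1. The groups did not overlap in this ratio on either day. The sum of both genes was also higher on day 7, with 39.8, 43.7 and 40.7 FPKM in S_7, against 24.1, 31.8 and 29.96 FPKM in CK_7.

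CLC-f (LOC104899230), of a type found in the Golgi of Arabidopsis, had 15.5, 12.5 and 11.7 FPKM in S_7, against 9.43, 8.66 and 8.57 FPKM in CK_7, a difference of 0.52 ± 0.13 (limma adjusted p = 0.124). The chloroplast type CLC-e (LOC104904468) had 1.67, 2.26 and 1.90 FPKM in S_7, against 1.23, 1.12 and 0.951 FPKM in CK_7 (0.48 ± 0.17, adjusted p = 0.222). Between the controls CLC-e was downregulated by 1.63 on the log2 scale (SE 0.20, limma adjusted p = 0.016), with 4.81, 5.81 and 5.97 FPKM in CK_1. A CLC-c-like gene (LOC104896964) stayed at or under 0.536 FPKM in every library. On day 7, 6 of the 8 CLC genes had an unadjusted limma P under 0.05, 1 of them a DEG, where 18.9% of all genes tested had such a P. Their directions were mixed: CLC-b LOC104893891 (-0.57) and CLC-c-like (-0.20) were lower in S_7, and CLC-b LOC104887561, CLC-c, CLC-f and CLC-e were higher. The cation-chloride cotransporter 1 (LOC104900820), an endomembrane carrier of K+, Na+ and Cl- in Arabidopsis, had 7.41, 7.26 and 7.20 FPKM in S_7, against 6.92, 3.78 and 6.90 FPKM in CK_7, and 3.003, 6.32 and 5.13 FPKM in S_1, against 6, 5.99 and 3.67 FPKM in CK_1. Neither difference passed the criteria (limma adjusted p = 0.539 and 0.889).

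SLAC1 was listed at 0 in 1 library of S_1 and 1 of CK_1, and its levels overlapped on both days. The 4 guard cell markers summed to at most 2.07 FPKM in any library.

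Cyclic nucleotide-gated channels gave 1 salt DEG among 16 genes. A channel 17 gene (LOC104906014) had 8.88, 8.05 and 5.91 FPKM in S_7, against 3.28, 2.95 and 3.04 FPKM in CK_7, and was upregulated by 1.06 ± 0.18 (limma adjusted p = 0.0619). It fell short of the fold criterion without the first S_7 library (0.95) and after median ratio scaling (0.98). On day 1 it had 10.6, 9.06 and 11 FPKM in S_1, against 5.60, 15.7 and 8.07 FPKM in CK_1, with overlap. In CK_7 against CK_1 the difference was -1.29 ± 0.36, and -0.92 without the second CK_1 library, short of the fold criterion. Other genes named channel 17 were added here after their values were seen. LOC104901798 had 12.8, 11.5 and 11.3 FPKM in S_7, against 7.22, 6.78 and 11.4 FPKM in CK_7, with overlap (0.48 ± 0.20, limma adjusted p = 0.292). Its difference in CK_7 against CK_1 was -0.13 ± 0.26. LOC104906057 was at most 0.0263 FPKM in any library.

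A channel 1 gene (LOC104885117) had 19.0, 20.9 and 15.6 FPKM in S_7, against 22.7, 27.6 and 29.997 FPKM in CK_7, and 9.83, 7.39 and 7.89 FPKM in S_1, against 9.65, 3.76 and 8.01 FPKM in CK_1. Its salt differences of -0.51 ± 0.16 and 0.27 ± 0.34 did not pass the criteria, and CK_7 exceeded CK_1 by 1.84 ± 0.33 (limma adjusted p = 0.0324). Another gene of the same name (LOC104888277), named here after its values were seen, had 10.1, 15.2 and 12.2 FPKM in S_7, against 26.9, 23.9 and 23.8 FPKM in CK_7, and at -0.95 ± 0.16 just missed the fold criterion (limma adjusted p = 0.0616). The most abundant channel, number 5 (LOC104893415), had 52.9, 39.9 and 38.1 FPKM in S_7, against 39.0, 34.4 and 31.7 FPKM in CK_7 (0.30 ± 0.16, adjusted p = 0.387).

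The comparisons of S_7 with CK_7 and of CK_7 with CK_1 share the 3 CK_7 libraries, so that a high or low CK_7 level enters both. Their values are therefore set side by side for each gene. For SKOR-like these were 2.56 and -1.14, for the CLC-b gene LOC104887561 1.44 and -1.24, for the cyclic nucleotide-gated channel 17 gene LOC104906014 1.06 and -1.29, for HKT8-like -3.31 and 2.21, for HKT6 LOC104902377 -2.52 and 2.76, for cation/H(+) antiporter 14-like -1.85 and 2.54 and for cation/H(+) antiporter 18 1.49 and 1.39, each on the log2(FPKM + 1) scale. Median ratio scaling shifted the median log2 fold change of genes with a mean of at least 1 FPKM by -0.17 in CK_7 against CK_1, by -0.06 on day 7 and by 0.00 on day 1.

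Proteins that act with these transporters were counted from lists taken by description. In Arabidopsis, calcineurin B-like Ca2+ sensors and the kinases they bind activate K+ channels and, in the SOS pathway, a Na+ exporter. Of 24 such genes tested, 2 were upregulated and 0 downregulated on day 1, and 1 was upregulated and 2 downregulated on day 7. Over all genes tested, 3.44% were upregulated and 2.55% downregulated on day 1, and 2.70% and 2.38% on day 7. Calcineurin B-like protein 4 (LOC104883533), whose Arabidopsis namesake is SOS3, had 18.2, 13.9 and 7.67 FPKM in S_1, against 2.41, 3.41 and 3.55 FPKM in CK_1, and was upregulated by 1.72 ± 0.33 (limma adjusted p = 0.0943). On day 7 it had 8.82, 7.68 and 6.91 FPKM in S_7, against 4.38, 3.99 and 4.62 FPKM in CK_7, without overlap but short of the fold criterion (0.72 ± 0.14, adjusted p = 0.0778).

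Proton pumps supply the gradient that the exchangers use. On day 1, 2 of 25 were upregulated and 0 downregulated, with a median log2 fold change of 0.42 (0.00 over all genes tested). On day 7, 1 of 26 was upregulated and 0 downregulated, with a median of 0.22 (0.02 over all genes tested). Of all genes, 3.44% were upregulated on day 1 and 2.70% on day 7. Subunit H of the vacuolar proton ATPase (LOC104890174) had 35.3, 39.0 and 44.3 FPKM in S_1, against 17.9, 20.5 and 18.3 FPKM in CK_1 (1.02 ± 0.14, limma adjusted p = 0.0535). Subunit c''2 (LOC104887714) had 34.9, 57.4 and 36.9 FPKM in S_7, against 9.45, 11.01 and 10.9 FPKM in CK_7 (1.91 ± 0.21, limma adjusted p = 0.0247). A further list held 49 other ion channels and exchangers (malate channels, glutamate receptors, mechanosensitive channels and S-type channels). On day 1, 3 of 49 were upregulated and 8 downregulated, beside 3.44% and 2.55% of all genes. On day 7, 4 of 48 tested were upregulated and 2 downregulated, beside 2.70% and 2.38% of all genes.

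The libraries had FPKM sums between 382847 and 423530. Their depth is not held by FPKM values, and its relative size, estimated from the spacing of low values, ran from 0.907 to 1.27 and rested on few values. Shoot marker genes summed to between 37.2 and 264 FPKM in S_1 and between 54.6 and 145 FPKM in CK_1, against 8.91 to 16.7 FPKM in S_7 and 10.1 to 22.7 FPKM in CK_7, and their part in the differences between the days was not tested. Over all genes, 542 of 6009 that reached 20 FPKM in a library were listed at 0 in another, but 0 of the 14 transporter genes that reached 20 FPKM were.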

How the data were processed

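The authors deposited FPKM values per gene. The submitters' processing notes name HISAT2 2.0 and StringTie 1.3.0. They also list Bowtie 0.12.2 and a mouse build, and the beet genome build is not given in the sources used here. FPKM values are already divided by transcript length and library size, so no count test was used, and 46 of the 83 genes combine more than 1 transcript. limma 3.58.1 under R 4.3.3, with an intensity trend, was fitted to log2(FPKM + 1) of genes above 0 in at least 1 library compared, over the 6 libraries of each comparison, or over 12 for the interaction. Fits were tested on simulated data with effects planted only in genes with a mean log2(FPKM + 1) above 3, so recovery was not tested for lower genes. Replicates were separate biological samples, 3 per group, for which an exact permutation test cannot go below 0.1. Correlations of the deviations of same-numbered libraries ran from -0.094 to 0.102, and those of libraries with different numbers from -0.089 to 0.121. The numbers were therefore not taken as pairs, although such correlations cannot exclude a shared batch.

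The genes and lists were chosen with earlier results of these data known. Named genes were those called in a comparison or with an adjusted p under 0.05, the highest of each family, and every HKT, SKOR, AKT1, SLAC1, exchanger 8 and potassium transporter 5 gene. LOC104891055, LOC104896713, LOC104893891, LOC104890514, LOC104888277, LOC104883074, LOC104901798, LOC104906057 and LOC104905954 were added after their values were seen. Marker lists were taken by description. Symbols of 77 genes matched RefSeq (EL10.2), used for names and neighbours only. Alternatives were a pseudocount of 0.1, a mean of at least 1 FPKM, median ratio scaling, all 12 libraries in 1 fit, an unmoderated linear model, the replicate number as a block, an adjusted p, and each library left out.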

Additional observations from a re-analysis of the deposited data

Results flagged for a closer look

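The salt effect differed between the days, by the interaction test over 12 libraries (limma, adjusted p under 0.05), for 7 genes. On the log2(FPKM + 1) scale, the effect on day 7 minus that on day 1 was -3.76 for HKT8-like (LOC104903830), -3.09 for HKT6 (LOC104902377), -2.83 for cation/H(+) antiporter 14-like (LOC104894068) and -0.44 for cation/H(+) antiporter 15 (LOC104900258). It was 1.87 for AKT1-like (LOC104887696), 1.59 for potassium transporter 4 (LOC104897100) and 1.06 for potassium transporter 8 (LOC104883983). Groups held 3 libraries each, too few for a search for single outlying libraries.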

How the results depend on the processing

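Under the alternatives run, 0 of the 30 calls of named genes changed direction, while 31 of 100 named results without a call, all with log2 fold changes of at most 0.35 in size, took the other sign under some alternative. Of the 30 calls, 15 held under every alternative. Of the 417 values these calls had under the alternatives, 367 stayed past the criteria and 50 did not. Of 1366 values of named genes without a call, 24 passed. The DEGs on day 1, on day 7 and between the controls (4, 7 and 12) became 11, 13 and 21 with a pseudocount of 0.1, where genes under 1 FPKM can reach the fold criterion. That pseudocount also took the log2 fold change of HKT6 LOC104902377 on day 7 to -3.94 and that of cation/H(+) antiporter 14-like (LOC104894068) to -2.92. An adjusted p with the fold criterion left 0 DEGs on day 1 and 4 on day 7 (15 of 82 and 24 of 81 transporter genes had an unadjusted limma P under 0.05, beside 15.6% and 18.9% of all genes). Leaving out 1 library gave 3 to 5, 6 to 9 and 10 to 13 DEGs. The 7 interactions became 4 with the replicate number as a block, and 4 to 7 with 1 library left out, the lowest without the third CK_7 library, and 10 after median ratio scaling, which added CLC-f LOC104899230, KAT3 LOC104906455 and CLC-b LOC104887561. That scaling gave 6 DEGs on day 1, adding CLC-b LOC104893891 and antiporter 14-like. HKT8-like, HKT6 LOC104902377 and potassium transporter 4 kept their interaction under all 17 alternatives, and under the block AKT1-like (limma adjusted p = 0.0567, range 0.0134 to 0.0567), potassium transporter 8 (0.0609, range 0.0159 to 0.0609) and antiporter 15 (0.0944, range 0.0144 to 0.0944) lost it. The block left 5, 7 and 12 DEGs. FPKM values hold no depth, so no counting error could be given for the low genes.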
